A study of Mus musculus with 36 samples.

Results

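The immediate early genes described here are *Fos*, *Fosb*, *Jun*, *Junb*, *Egr1*, *Egr2*, *Egr3*, *Atf3*, *Nr4a1* and *Ier2*, 10 of the 78239 genes counted. They were chosen by name, and each symbol was matched to the Ensembl identifier under which its read pairs had been counted. Polyadenylated RNA was sequenced from heart, kidney and liver of male wild-type mice of the strain C57BL/6NCrl, which were 8, 10 or 12 weeks old. Each of the 9 combinations of tissue and age had 4 libraries. Before their tissues were frozen, all mice had been anesthetized with ketamine and xylazine, bled from the retro-orbital sinus and killed by cervical dislocation, so no group lacked these steps. The mice received no other treatment, and the tissues were whole pieces holding many cell types. The labels do not say whether libraries with the same number in different tissues came from the same mouse.

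Immediate early genes are transcribed within minutes of a stimulus, without new protein synthesis, because the transcription factors that drive them (SRF with its ternary complex partners, and CREB) already sit on their promoters. Their own products are mostly transcription factors: FOS, FOSB, JUN and JUNB pair to form AP-1, EGR1, EGR2 and EGR3 are zinc-finger proteins, ATF3 is a stress-induced bZIP factor, and NR4A1 is an orphan nuclear receptor. Their messengers decay quickly. In heart, kidney and liver they are known as early markers of stress, injury and hormonal stimulation.

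The promoters of 4 members are shown as examples of the letters through which these genes are known to be induced. They were picked after the search and all hold at least 1 of the motifs, so they do not stand for all 7. Promoters of 7 of the 10 members (*Fos*, *Fosb*, *Jun*, *Junb*, *Egr2*, *Atf3* and *Nr4a1*) were matched by symbol in RefSeq's promoter table for GRCm39, and up to 250 bases before the start were searched. *Fosb* and *Atf3* held the core letters once each and *Jun* none of the motifs. Positions count back from the start, with -1 the base before it. Capitals mark the letters TGACG or, on the other strand, CGTCA (the core of the cyclic AMP response element, which CREB and ATF proteins bind), the CArG box (which SRF binds) and the letters TATAAA. The *Fos* promoter (chr12:85520414-85520657, plus strand) holds core letters at -129 and -66 and TATAAA at -33. The *Junb* promoter (chr8:85705378-85705627, minus strand) holds the core letters at -106. In *Egr2*, for which 5 starts are listed, the promoter at chr10:67373449-67373691 (plus strand) holds a CArG box at -72 and core letters at -111 and -55, while another of its starts had a CArG box without core letters and another none of the motifs. The *Nr4a1* promoter (chr15:101164477-101164656, plus strand) holds core letters at -233 and -213, and 2 more at -69 and -40 lie in bases that are not shown because they overlap an exon.
Fos: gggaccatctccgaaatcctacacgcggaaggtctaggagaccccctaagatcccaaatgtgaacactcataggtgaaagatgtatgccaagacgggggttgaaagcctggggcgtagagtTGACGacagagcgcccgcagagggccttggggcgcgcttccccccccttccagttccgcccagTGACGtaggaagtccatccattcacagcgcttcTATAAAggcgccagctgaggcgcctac
Junb: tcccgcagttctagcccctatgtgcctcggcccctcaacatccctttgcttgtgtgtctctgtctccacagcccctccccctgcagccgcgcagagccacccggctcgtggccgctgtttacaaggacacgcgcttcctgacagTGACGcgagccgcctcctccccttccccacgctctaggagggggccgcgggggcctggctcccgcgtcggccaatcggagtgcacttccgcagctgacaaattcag
Egr2: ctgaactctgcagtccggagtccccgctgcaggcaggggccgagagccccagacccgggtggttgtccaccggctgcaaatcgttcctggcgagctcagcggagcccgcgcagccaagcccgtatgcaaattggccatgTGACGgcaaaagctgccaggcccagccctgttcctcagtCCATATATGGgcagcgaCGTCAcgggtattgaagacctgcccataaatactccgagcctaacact
Nr4a1: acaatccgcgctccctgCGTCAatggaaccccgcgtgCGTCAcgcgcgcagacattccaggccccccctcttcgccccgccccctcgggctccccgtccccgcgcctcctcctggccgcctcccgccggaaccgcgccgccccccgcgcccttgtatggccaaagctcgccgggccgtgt
Of all 32851 promoters in the table, 17.8% hold the core letters, 1.47% a CArG box and 7.59% TATAAA in the same stretch. The full cyclic AMP response element, TGACG followed by TCA (1.55% of all promoters), the AP-1 sites TGACTCA and TGAGTCA (4.46%) and the EGR site, GCG, TGG and GCG in a row (0.536%) were in none of the 7 members' promoters, both strands being read. A match describes letters in this window and does not show that a factor binds there.

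Levels are given in CPM, the read pairs on a gene scaled to a common total of pairs counted on all genes of a library. The 36 libraries held 21031599 to 33637390 counted pairs, and each tissue carried its own markers: those of heart muscle summed to at least 40201 CPM in every heart library, those of kidney tubule to at least 25872 CPM in every kidney library and those of hepatocytes to at least 67651 CPM in every liver library. A pair that overlaps several genes was counted for none, which left *Jun* with 71.9% of its pairs (an antisense gene, *Junos*, shares 528 of its exon bases) and *Junb* with 88.9%, while the other 8 members kept at least 99.5%. In each tissue 9 of the 10 members passed the filter on low counts: *Egr2* did not in heart, and *Egr3* did not in kidney or liver. In 10 pairings of library and gene, all *Egr2* or *Egr3* in kidney or liver, the count was 0, which allows up to 0.0892 to 0.143 CPM. In the first 12-week liver library, all 9 members tested were at their highest of the 4 libraries of that group. The first 12-week libraries of kidney and heart were highest of their groups in 7 and 6 of 9 members. The main liver results are also given without that liver library, apart from the spread between libraries.

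**Figure D1:**
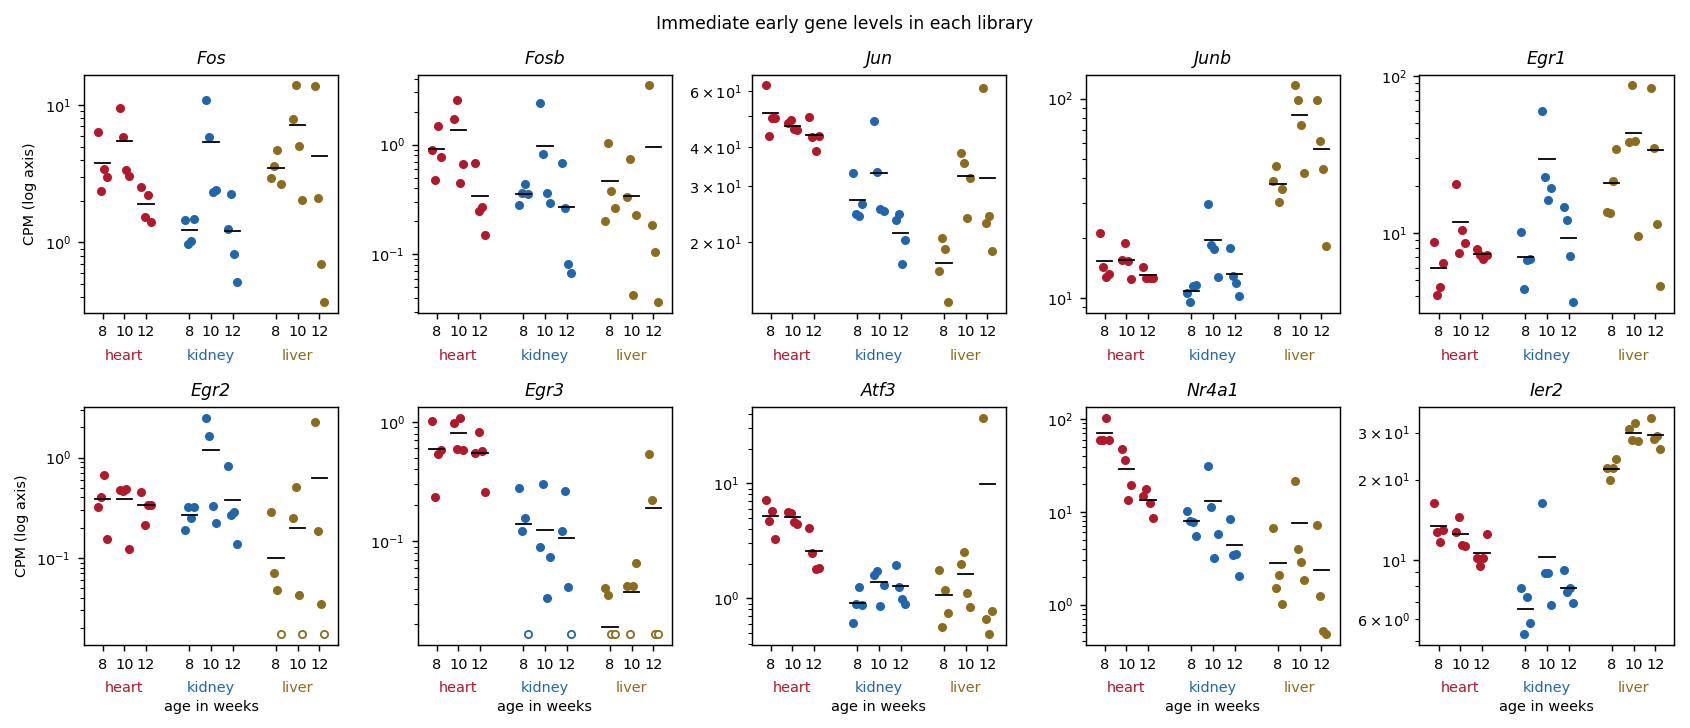
CPM of each gene in every library (log axis), by tissue and age in weeks, with a point for each library and a bar at the mean of the 4. Open points at the bottom stand for a count of 0. The 8-week hearts, from 58.6 CPM up, held more *Nr4a1* than all older hearts, and in liver the first 12-week library reached 37.2 CPM of *Atf3*.

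In the heart, *Nr4a1* and *Atf3* were lower at 12 than at 8 weeks, and 8 of the 9 members tested had a log2 fold change below 0. *Nr4a1* (chr15:101151980-101172681, plus strand) encodes the nuclear receptor NUR77. At 8 weeks it stood at 58.6, 59.4, 103 and 59.9 CPM. At 10 weeks the libraries gave 46.9, 36.4, 13.5 and 19.6 CPM, and at 12 weeks 14.7, 17.7, 12.5 and 8.52 CPM. The lowest 8-week heart thus lay above the highest heart of both later ages, and the 10-week hearts reached down into the range of the 12-week hearts. From 8 to 12 weeks *Nr4a1* fell by 2.42 ± 0.33 on the log2 scale (SE, n = 4 and 4), 5.37-fold, with an edgeR adjusted p of 0.00160. Without any one of the 12 heart libraries the adjusted p stayed between 0.000521 and 0.00964. From 8 to 10 weeks its log2 fold change was -1.26 ± 0.31 (edgeR adjusted p = 0.0640), and from 10 to 12 weeks it was -1.17 ± 0.32 (edgeR adjusted p = 0.227).

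*Atf3* (chr1:190902493-190950241, minus strand), a repressor and activator of stress genes, had 7.10, 4.70, 5.72 and 3.30 CPM in the 8-week hearts and 4.12, 2.49, 1.81 and 1.82 CPM in the 12-week hearts. A single 12-week heart overlapped the range at 8 weeks. The gene fell by 1.06 ± 0.26 on the log2 scale (SE, n = 4 and 4), 2.09-fold, with an edgeR adjusted p of 0.0310. The 10-week hearts, at 5.61, 5.56, 4.63 and 4.42 CPM, were all above the 12-week hearts, and 12 against 10 weeks gave a log2 fold change of -1.03 ± 0.26 that missed the threshold (edgeR adjusted p = 0.227). Leaving out any of 5 single libraries (8-week replicates 1, 2 and 3 and 12-week replicates 2 and 3) ended the call, with an edgeR adjusted p of up to 0.0889.

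Of all genes tested in heart at 12 against 8 weeks, 2.21% passed as lower. Among the members, 2 of 9 passed as lower and none as higher. *Fos* (chr12:85520658-85524047, plus strand) stood at 6.37, 2.36, 3.44 and 2.99 CPM at 8 weeks, 9.61, 5.84, 3.34 and 3.06 CPM at 10 weeks and 2.52, 1.53, 2.22 and 1.41 CPM at 12 weeks. The 12-week hearts lay below all 10-week hearts and overlapped the 8-week hearts only through 1 library of each age. Its log2 fold change was -1.01 ± 0.37 at 12 against 8 weeks (edgeR adjusted p = 0.117) and -1.57 ± 0.37 at 12 against 10 weeks (edgeR adjusted p = 0.227). *Fosb*, its close relative, had -1.47 ± 0.58 and -2.07 ± 0.56 in the same comparisons, with adjusted p-values of 0.141 and 0.227 by edgeR. *Egr1* was the exception in direction, at 0.27 ± 0.28 for 12 against 8 weeks (edgeR adjusted p = 0.590). Its 8-week hearts held 8.76, 4.05, 4.56 and 6.45 CPM, and the 12-week hearts a narrow 7.87, 7.29, 6.78 and 7.29 CPM. *Jun*, *Junb*, *Egr3* and *Ier2* had log2 fold changes between -0.37 and -0.11, none of which passed.

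No member passed in the other comparisons of ages in heart. At 10 against 8 weeks 1.06% of all genes passed by edgeR, but none of the 9 members. By limma-voom 1 member passed, against 70 higher and 37 lower of all 15137 genes, and by DESeq2 0, against 247 and 119. At an unadjusted edgeR p under 0.05 there were 2 members, against 2386 of the 15137 genes. *Egr1* was nearest on the higher side, at 1.00 ± 0.28 (edgeR adjusted p = 0.0927). At 12 against 10 weeks 0.0396% of all genes passed by edgeR. Again none of the members passed by edgeR or limma-voom, and all 9 fold changes were below 0. DESeq2 called none, against 35 higher and 36 lower of all genes, but gave no adjusted p for *Fos*, *Fosb*, *Egr1*, *Egr3* and *Atf3*. It could therefore not call these genes. At an unadjusted edgeR p under 0.05 there were 5 members, against 1776 of all 15137 genes. The 3 comparisons of ages within a tissue share libraries, so they are not separate evidence.

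**Figure D2:**
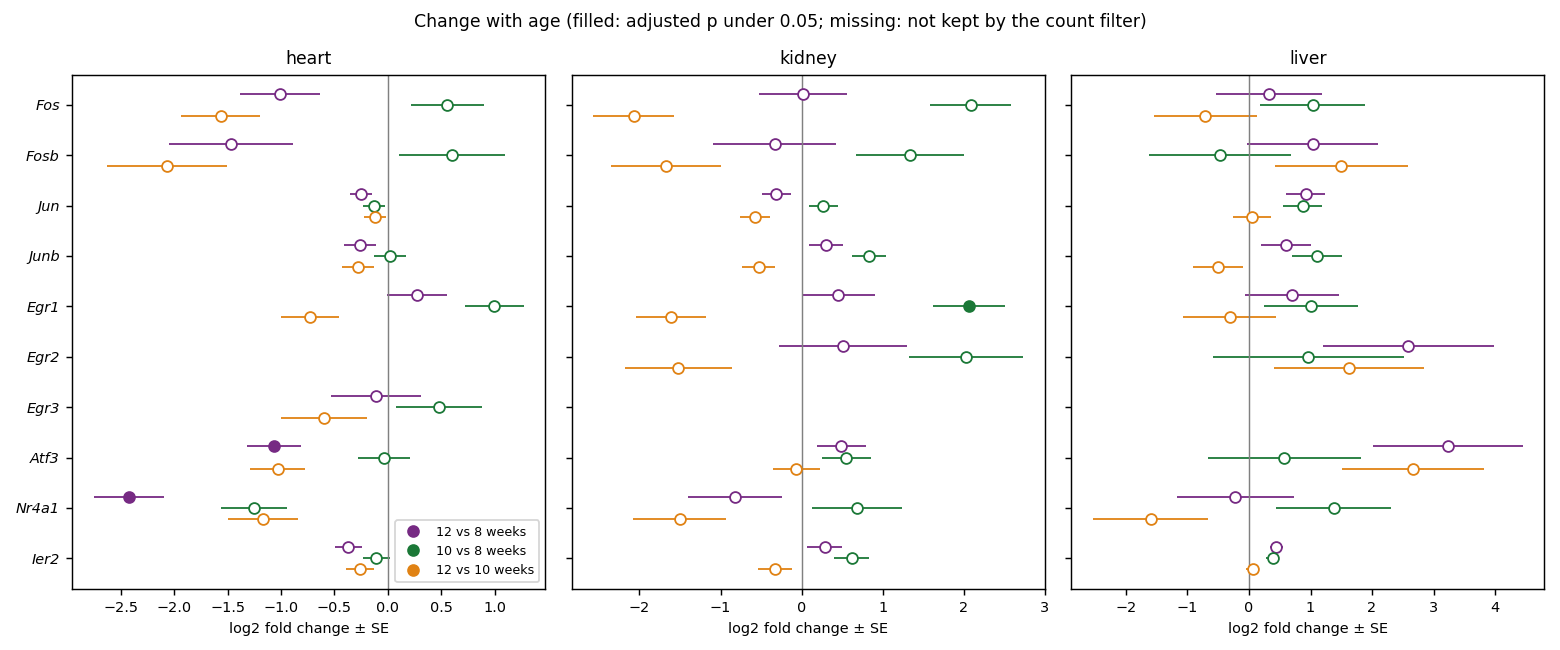
Log2 fold change of each gene with its standard error for the 3 comparisons of ages in heart, kidney and liver (n = 4 per age). Filled points passed the adjusted p of 0.05: *Nr4a1* and *Atf3* in heart (12 against 8 weeks) and *Egr1* in kidney (10 against 8 weeks).

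Of 53 genes that act with the members or are induced like them, chosen by name with earlier results of these data known, 49 were tested in heart, and 42 of them had a log2 fold change below 0 at 12 against 8 weeks, with a median of -0.25 against 0.00090 over all genes tested. Of the 49, 14 passed as lower and 1 as higher, against 334 lower and 357 higher of all 15137 genes. At an unadjusted edgeR p under 0.05 there were 30 of the 49, against 3544 of all genes. Among the AP-1 partners, *Fosl2* fell by 0.74 ± 0.14 on the log2 scale (edgeR adjusted p = 0.00893), and it was the single one of 7 to pass. Among the relatives of EGR and NR4A, *Nr4a2*, the sister receptor of *Nr4a1*, fell by 0.94 ± 0.24 (edgeR adjusted p = 0.0363), the single one of 4. Of the 11 genes that feed back on the pathway, all had fold changes below 0 and 3 passed: *Dusp1* and *Dusp5*, phosphatases of MAP kinases, fell by 0.66 ± 0.10 and 0.68 ± 0.18, and *Nfkbia*, the inhibitor of NF-κB, fell by 0.68 ± 0.14 (edgeR adjusted p of 0.00330, 0.0389 and 0.0173). Of 19 further primary response genes, 9 fell, led by *Sik1*, a kinase induced by cyclic AMP, by 1.46 ± 0.21, *Klf2*, the flow-responsive factor of endothelium, by 1.16 ± 0.17, and *Cebpd*, an acute-phase factor, by 0.97 ± 0.22 (edgeR adjusted p of 0.00203, 0.00203 and 0.0269). The bZIP factor *Cebpb* followed at a drop of 0.80 ± 0.19 (edgeR adjusted p = 0.0265). *Klf10*, induced by TGF-β and named after its value was seen as the single gene to rise, rose by 0.79 ± 0.18 (edgeR adjusted p = 0.0240). None of the 9 upstream regulators, *Srf* and *Creb1* among them, passed. Leaving out one library moved the 14 lower genes to between 5 and 17, namely 6, 5 and 8 without 8-week replicates 2, 3 and 4, 7 and 6 without 12-week replicates 2 and 3, and at least 11 without any other. At 10 against 8 weeks, *Ier5*, an immediate early gene of the heat shock response, fell by 0.47 ± 0.11 (edgeR adjusted p = 0.0429) and *Klf6* by 0.38 ± 0.09 (edgeR adjusted p = 0.0494). These were the 2 of the 49 that passed there, where 46 of all 15137 genes passed as lower and 115 as higher.

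The 4 heart muscle markers summed to 42935 to 44637 CPM at 8 weeks and 45424 to 53299 CPM at 12 weeks, without overlap, the 4 fibroblast markers, of which *Pdgfra* passed as higher (0.45 ± 0.08, edgeR adjusted p = 0.00548), to 567 to 592 CPM and 595 to 699 CPM, also without overlap, and the 4 neutrophil markers, all with fold changes below 0, to 7.14 to 11.5 CPM and 3.17 to 10.8 CPM. *Kap*, a kidney tubule gene, passed as higher in the 12-week hearts (6.15 ± 1.28 on the log2 scale, edgeR adjusted p = 0.0173), where the kidney tubule markers summed to at most 5.95 CPM, and hepatocyte markers reached 21.5 CPM in one 10-week heart. The markers *Hba-a2* and *Hbb-bs* of red cells were listed at 0 in every tissue. The part of these levels in the drop of *Nr4a1* and *Atf3* was not tested, and in bulk tissue fewer cells of a type and less RNA per cell cannot be told apart.

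In the kidney, *Egr1* rose at 10 weeks. It stood at 10.1, 4.40, 6.72 and 6.79 CPM at 8 weeks, at 60.1, 22.8, 16.2 and 19.2 CPM at 10 weeks and at 14.6, 12.1, 7.09 and 3.65 CPM at 12 weeks. Every 10-week kidney lay above every kidney of the other ages. The log2 fold change from 8 to 10 weeks was 2.06 ± 0.44 (SE, n = 4 and 4), 4.17-fold, with an edgeR adjusted p of 0.0441, and from 10 to 12 weeks it was -1.61 ± 0.43 (edgeR adjusted p = 0.0963). Leaving out any of 8 single libraries (8-week replicates 1 to 4, 10-week replicates 1 and 3, 12-week replicates 2 and 3) ended the call, with an edgeR adjusted p of up to 0.133, and so did limma-voom (1.87, adjusted p = 0.0793). Without 10-week replicate 1 the log2 fold change was 1.47. Without 10-week replicate 4, *Fos* and *Junb* passed as well, which made 3 members.

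At 10 against 8 weeks 0.646% of all genes in kidney passed as higher, and 1 of the 9 members did, while all 9 fold changes were above 0 with a median of 0.83. *Fos* held 1.45, 0.970, 1.03 and 1.48 CPM at 8 weeks and 10.9, 5.82, 2.33 and 2.41 CPM at 10 weeks, with no overlap between the ages. It missed the threshold at a log2 fold change of 2.08 ± 0.50 (edgeR adjusted p = 0.0623). *Junb* did not overlap either, with 10.6, 9.57, 11.5 and 11.7 CPM against 29.8, 18.5, 17.6 and 12.8 CPM, and its log2 fold change was 0.83 ± 0.21 (edgeR adjusted p = 0.0720). *Egr2* had the next largest change at 2.03 ± 0.71 (edgeR adjusted p = 0.167). *Nr4a1* stood at 10.1, 8.04, 7.84 and 5.50 CPM at 8 weeks and at 31.4, 11.4, 3.19 and 5.70 CPM at 10 weeks, a range that took in all 8-week kidneys. A single library, the first of the 10-week kidneys, was highest of its group in 8 of 9 members, and without it the fold change of *Nr4a1* turned from 0.68 to -0.22, with neither past the threshold.

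At 12 against 10 weeks all 9 members had fold changes below 0 with a median of -1.503. None passed by edgeR, where 0.482% of all genes passed, or by limma-voom. By DESeq2 3 passed, against 349 higher and 308 lower of all 17649 genes. At an unadjusted edgeR p under 0.05 there were 7, against 2894 of the 17649 genes. *Fos* changed by -2.07 ± 0.50 (edgeR adjusted p = 0.0750) and *Jun* by -0.58 ± 0.18 (edgeR adjusted p = 0.136), both without overlap between the ages. At 12 against 8 weeks 0.0567% of all genes passed, and none of the members did by any of the 3 tests or at an unadjusted p under 0.05. Of the related genes, *Jund*, the AP-1 partner that most cells hold at rest, rose by 0.51 ± 0.07 at 10 against 8 weeks and fell by 0.50 ± 0.07 at 12 against 10 weeks (edgeR adjusted p of 0.00799 and 0.0103), and *Zfp36*, which speeds the decay of unstable messengers, fell by 0.59 ± 0.12 in the latter (edgeR adjusted p = 0.0459). In the kidney the summed kidney tubule markers lay at 25872 to 30329 CPM at 8 weeks and 29618 to 33461 CPM at 10 weeks, and the leukocyte markers at 95.2 to 115 CPM and 115 to 123 CPM. Their part in the rise of *Egr1* was not tested.

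In the liver no member passed in any comparison of ages by edgeR or limma-voom. By DESeq2, 1 passed as higher at 12 against 8 weeks, against 238 higher and 185 lower of all 14672 genes. The share of all genes passing by edgeR was 0.239% at 12 against 8 weeks, 0.0204% at 10 against 8 weeks and 0.0545% at 12 against 10 weeks. At an unadjusted edgeR p under 0.05 there were 3, 3 and 1 members, against 2221, 2100 and 2073 of the 14672 genes. *Ier2*, a small nuclear protein induced by growth factors, came nearest: it stood at 22.1, 19.9, 22.01 and 23.9 CPM at 8 weeks, 31.0, 28.1, 32.5 and 27.9 CPM at 10 weeks and 34.1, 28.5, 29.2 and 25.9 CPM at 12 weeks. The 8-week livers lay below all others, with a log2 fold change of 0.45 ± 0.11 at 12 against 8 weeks (edgeR adjusted p = 0.106; 0.37 without the first 12-week liver) and 0.39 ± 0.11 at 10 against 8 weeks (edgeR adjusted p = 0.159). *Jun* showed the same order at 10 weeks, with 16.2, 20.5, 18.97 and 12.95 CPM at 8 weeks and 38.1, 35.6, 23.9 and 31.9 CPM at 10 weeks, and a fold change of 0.87 ± 0.32 (edgeR adjusted p = 0.238). Summed markers of 3 cell types also separated the 8-week from the 10-week livers without overlap: leukocyte markers lay at 22.1 to 36.004 CPM and 50.1 to 69.6 CPM, endothelial markers at 60.7 to 114 CPM and 116 to 123 CPM, and hepatocyte markers at 88227 to 104928 CPM and 67651 to 80929 CPM. None of the markers tested from these lists passed singly, and their part in the levels of *Ier2* and *Jun* was not tested.

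The largest fold change in liver rested on 1 library. *Atf3* stood at 37.2 CPM in the first 12-week liver and at 0.662, 0.488 and 0.777 CPM in the others of that age, against 1.75, 0.566, 1.19 and 0.752 CPM at 8 weeks. The log2 fold change at 12 against 8 weeks was 3.23 ± 1.21 (edgeR adjusted p = 0.248) and -0.69 without that library. In the same library *Fos* reached 13.8 CPM against 2.10, 0.698 and 0.370 CPM in the others, and *Egr1* 83.8 CPM against 34.7, 11.5 and 4.59 CPM. The log2 fold change of *Fos* at 12 against 8 weeks was 0.32 ± 0.86 with this library and -1.69 without it, and that of *Egr1* 0.70 ± 0.76 and -0.30. Among the 12-week livers this library also held 59.3 CPM of neutrophil markers (50.7 CPM of it *Lcn2*, which hepatocytes also make in the acute phase, and 3.54 CPM *S100a8*), against 3.57 to 6.55 CPM in the other libraries of that group, and 12.5 CPM of smooth muscle markers against 2.58 to 4.01 CPM, and their part in its levels was not tested. The second 10-week liver, with the highest *Fos* (13.9 CPM) and *Egr1* (87.0 CPM) of all livers, held 283 CPM of neutrophil markers, 272 CPM of it *Lcn2* and 4.79 CPM *S100a8*. The fourth 12-week liver was at the other end, lowest of its group in 8 of 9 members. The fourth 12-week kidney was also lowest of its group in 8 of 9 members, and the fourth 12-week heart in 4 of 9. None of the 47 related genes tested in liver passed in any of the 3 comparisons by edgeR. At an unadjusted edgeR p under 0.05 there were 7, 7 and 8 (12 against 8, 10 against 8 and 12 against 10 weeks). Of all 14672 genes 2221, 2100 and 2073 were under it. By DESeq2 there were 2, 1 and 3 related genes, against 238, 190 and 183 higher and 185, 171 and 300 lower of all genes.

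A change in one tissue and not in another was tested in a fit of all 36 libraries. For 12 against 8 weeks the change in heart minus that in liver was below 0 for all 10 members, and 3 passed: *Atf3* at -4.28 ± 1.09, *Jun* at -1.17 ± 0.33 and *Ier2* at -0.82 ± 0.23 (edgeR adjusted p of 0.0221, 0.0377 and 0.0360), where 4.16% of all genes passed. With each combination of age and replicate number as a block across tissues, *Atf3* no longer passed (-2.70, edgeR adjusted p = 0.0755), which left 2. Without scaling factors only *Atf3* passed, which left 1. Without the first 12-week liver none of them passed, and the difference for *Atf3* was -0.38, for *Jun* -0.65 and for *Ier2* -0.75 (edgeR adjusted p of 0.812, 0.134 and 0.0691). For heart minus kidney, where 0.112% of all genes passed by edgeR, none of the members passed by edgeR, DESeq2 or limma-voom. At an unadjusted edgeR p under 0.05 there was 1, against 2198 of all 19716 genes. *Nr4a1*, which fell in heart, differed from kidney by -1.60 ± 0.94 (edgeR adjusted p = 0.549), so the drop was not shown to differ between these tissues. For kidney minus liver, where 0.304% of all genes passed by edgeR, none of the members passed by edgeR or limma-voom. By DESeq2 1 passed, against 168 higher and 137 lower of all 19716 genes. At an unadjusted edgeR p under 0.05 there were 3, against 2201 of the 19716 genes.

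Over all ages the tissues held the members at different levels. *Nr4a1* was highest in heart, at 8.52, 28.0 and 103 CPM (lowest, median and highest of 12 libraries), then in kidney at 2.05, 6.77 and 31.4 CPM and in liver at 0.481, 1.96 and 21.6 CPM, and the difference between kidney and liver did not pass (0.25 ± 0.42 on the log2 scale, edgeR adjusted p = 0.583), but did without scaling factors (1.04, edgeR adjusted p = 0.0203). *Ier2* was highest in liver, at 19.9, 28.0 and 34.1 CPM, above all heart libraries (at most 16.4 CPM) and all kidney libraries (at most 16.3 CPM), and all 3 of its pairwise differences passed. *Junb* was highest in liver at 18.2, 45.2 and 117 CPM, against 12.4, 13.7 and 21.2 CPM in heart and 9.57, 12.3 and 29.8 CPM in kidney. *Egr1* was highest in liver as well, at 4.59, 27.9 and 87.0 CPM, while the difference between heart and kidney did not pass (-0.10 ± 0.35, edgeR adjusted p = 0.801). *Jun* was highest in heart, at 38.9, 46.6 and 62.5 CPM. *Egr3*, scarce everywhere, was above the other tissues in heart, at a median of 0.580 CPM. Per kilobase of exon, the median of *Jun* in heart was 14.6 CPM and that of *Nr4a1* 2.57 CPM, and in liver *Junb* (19.004 CPM) and *Ier2* (18.4 CPM) led. The length used joins all annotated exons of a gene, 3189 bases for *Jun* and 10903 for *Nr4a1*. It can exceed the length of the messenger present, which would set a gene too low.

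In these contrasts 8 of 10 members differed between heart and kidney, where 86.1% of all genes passed, 6 of 10 between heart and liver (84.2%) and 6 of 10 between kidney and liver (83.1%), so the members' counts are not above that background. Tissues also differ in how far a few abundant genes fill their libraries. Without scaling factors the median of all genes between heart and kidney moved from -0.15 to -0.67 and that between kidney and liver from 0.16 to 0.93, *Fos*, *Fosb* and *Junb* no longer passed between heart and kidney, and *Jun* changed sign between kidney and liver, from -0.76 to 0.03. That setting was added after the data were seen. Without the first 12-week liver, *Fosb*, *Egr2* and *Atf3* also passed as higher in heart than in liver, by 1.19, 1.36 and 1.70, and *Egr2* as higher in kidney than in liver, by 1.27.

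Several members varied widely between libraries of one age. The within-age SD of log2 CPM was above the 90th percentile of all genes tested for 4 of 9 members in heart, 5 of 9 in kidney and 7 of 9 in liver. In liver the SD of *Atf3* was 1.75, at percentile 99.9, that of *Egr2* 1.60 and that of *Fosb* 1.54, against a median of 0.25 over all genes there. The liver SDs include the first 12-week library, in which these genes were highest of their group, and are not given without it. *Egr2* and *Fosb* also had low mean counts there, 2.5 to 18.25 and 10.25 to 28 per age. Relative to its trend with level, the edgeR dispersion of *Atf3*, *Egr2* and *Fosb* was at percentile 99.8, 99.7 and 99.3. *Fos* reached 0.62 (heart), 0.80 (kidney) and 1.44 (liver), at percentiles 95.7, 98.7 and 99.6. *Ier2* had an SD of 0.15 in liver, at percentile 24.9, and *Jun* 0.16 in heart, at percentile 44.5. These are descriptions, with no test.

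**Figure D3:**
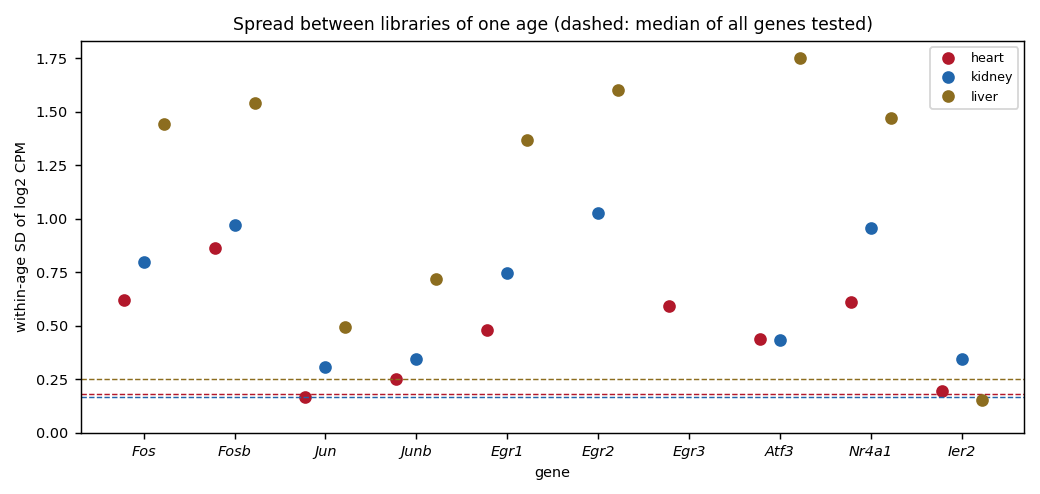
Within-age SD of log2 CPM (9 degrees of freedom, 12 libraries per tissue) of each gene, with the median of all genes tested in each tissue as a dashed line. *Fos*, *Fosb*, *Egr1*, *Egr2*, *Atf3* and *Nr4a1* lie far above it in liver, and *Ier2* lies below it.

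After the mean of each age was subtracted, the 27 correlations of the other members with *Fos* (9 members, 3 tissues, 12 libraries each, the genes below the count filter included) were all above 0, with a median Pearson r of 0.61 (heart), 0.75 (kidney) and 0.84 (liver), and all 27 stayed above 0 without the 2 libraries farthest from the *Fos* median. Over all other genes tested, 49.8% (heart), 48.9% (kidney) and 47.6% (liver) had an r above 0. The points share library and depth. Libraries were permuted within each age over all 13824 arrangements (exact two-sided test), and 4 relations passed after adjustment over the 27. In liver, *Egr2* had r = 0.91 (exact permutation p = 0.00253, adjusted 0.0313) and rho = 0.88 (exact permutation p = 0.00391, adjusted 0.0557), and *Egr1* r = 0.90 (exact permutation p = 0.00347, adjusted 0.0313) and rho = 0.73 (exact permutation p = 0.0395, adjusted 0.0762). In kidney, *Egr1* had r = 0.86 (exact permutation p = 0.00159, adjusted 0.0313) and rho = 0.83 (exact permutation p = 0.00412, adjusted 0.0557), and *Jun* r = 0.85 (exact permutation p = 0.00673, adjusted 0.0454) and rho = 0.76 (exact permutation p = 0.0299, adjusted 0.0735). Without the 2 libraries farthest from the *Fos* median, r was 0.87 for *Egr2* and 0.83 for *Egr1* in liver, and 0.82 for *Egr1* and 0.63 for *Jun* in kidney. None passed by Spearman's rho after adjustment, and 18 had an unadjusted p under 0.05 by Pearson's r (exact permutation). With one library number of one age left out in all tissues, 0 relations passed without any of the 4 numbers at 10 weeks, 1 or 2 without any at 12 weeks, 2 without 8-week number 3, and 3 or 4 without the others.

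**Figure D4:**
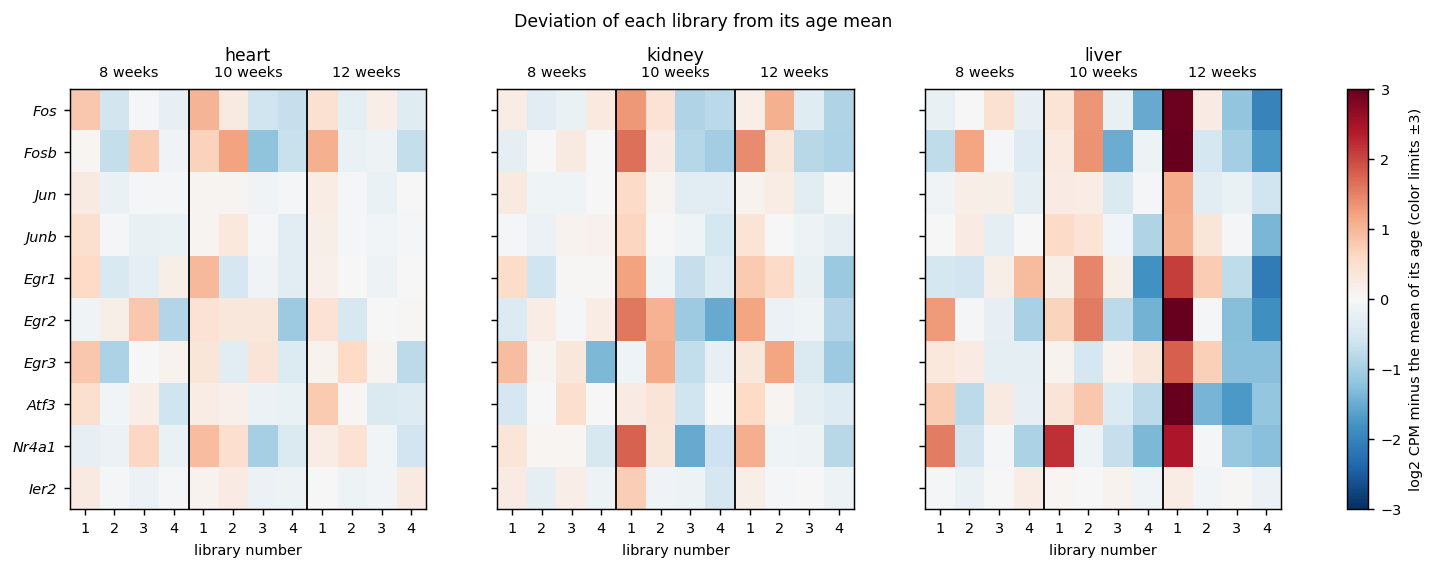
Log2 CPM of each gene minus the mean of its age, for each library of heart, kidney and liver (color limits ±3; vertical lines part the ages). The first 12-week liver and the first 10-week kidney are red for nearly all genes, and the fourth 12-week liver is blue.

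**Figure D5:**
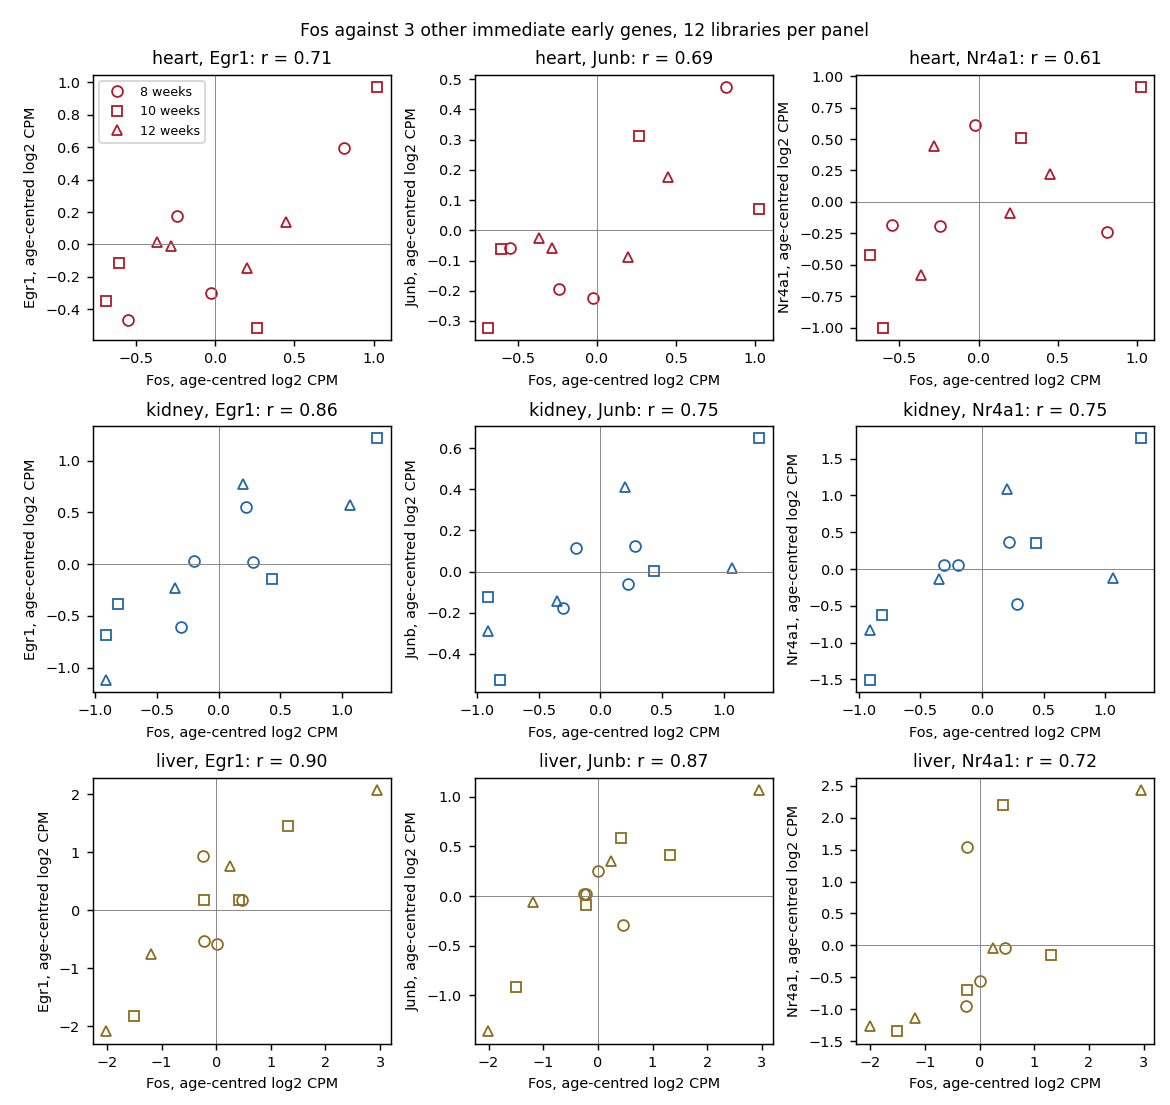
*Fos* against *Egr1*, *Junb* and *Nr4a1* in log2 CPM minus the mean of the age, with a point for each of 12 libraries per panel and a symbol for each age. Pearson's r lies between 0.61 (*Nr4a1* in heart) and 0.90 (*Egr1* in liver), and in liver the first 12-week library is at the upper right.

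Over all genes tested other than the members, ranked by Pearson's r with age-centred *Fos* in 12 libraries and given with no test, heart was led by *Uckl1* (r = 0.92), *Zfp976* (0.91), *Gm15760* (0.90), *Dusp6* (0.87), a phosphatase of ERK, and *Csrnp2* (0.87). Kidney was led by *Gm64463* (0.92), *Gvin4* (0.90), *Cdca7* (0.90), *Gm43080* (0.90) and *Abraxas1* (0.89), and liver by *Ehbp1l1* (0.96), *Dusp5* (0.95), another phosphatase of ERK, *Gm49759* (0.95), *Csf3r* (0.95), the receptor of granulocyte colony-stimulating factor, and *Nudt4* (0.94). The members stood lower in these orders: the highest were *Fosb* in heart (rank 94 of 15137 genes), *Egr1* in kidney (16 of 17649) and *Egr2* in liver (28 of 14672), and the lowest were *Egr3* in heart (823), *Atf3* in kidney (1600) and *Ier2* in liver (1748).

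Libraries of one number in different tissues were set against each other in the same way. Of 30 relations (10 members, 3 pairs of tissues, 12 pairs of libraries each), 29 had a Pearson r above 0, with a median of 0.51. None passed after adjustment over the 30 by Pearson's r, and 10 had an unadjusted exact permutation p under 0.05. Between kidney and liver *Nr4a1* had r = 0.84 (exact permutation p = 0.00231, adjusted 0.0666) and rho = 0.85 (exact permutation p = 0.00152, adjusted 0.0282), and between heart and kidney *Jun* had r = 0.68 (exact permutation p = 0.00666, adjusted 0.0666) and rho = 0.87 (exact permutation p = 0.00188, adjusted 0.0282). These 2 passed by Spearman's rho, and without the 2 farthest libraries r was 0.68 for *Nr4a1* and 0.52 for *Jun*. *Ier2* between heart and liver, at r = -0.20, was the single relation below 0.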

How the data were processed

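The authors checked reads with FastQC 0.11.9, trimmed them with cutadapt 4.2 and aligned them with STAR 2.7.11b to GRCm39 (Ensembl v113), per the labels and methods, and deposited whole-number counts of read pairs per gene. The unstranded counts were analysed. Names came from GENCODE vM39, which matched 78168 of 78239 identifiers. Genes with, in at least 1 group, a count above 0 in 2 libraries and a mean count of at least 10 were kept, scaled by TMM factors and tested with edgeR 4.0.16 (estimateDisp, glmQLFit, glmQLFTest, R 4.3.3), with a mean for each age per tissue, or for all 9 groups. P-values were adjusted by Benjamini-Hochberg over all genes kept, and 0.05 was the threshold. Log2 CPM used a prior count of 2. The code was tested on simulated data. Alternatives were DESeq2 1.42.0, limma-voom 3.58.1, RLE factors, no filter or filterByExpr, the strand columns, only the 2 ages compared, a replicate block, each library left out and, added after the data were seen, no scaling factors. The text names all members, up to 4 passing genes per related list with the largest changes, and the 5 genes most like *Fos* per tissue. Members and lists were chosen with earlier results of these data known. The study's methods call the 4 libraries of a group biological replicates.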

Additional observations from a re-analysis of the deposited data

Results flagged for a closer look

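In 81 groups of 4 libraries, 10 had a library far from the other 3 by Dixon's test, each time above them. Independent values with a normal spread would give about 1 in 20 groups, or 4.05. The CPM were not log-transformed and the groups share libraries, so 10 cannot be judged against 4.05. The first 12-week liver library gave 6 of them: *Fos* at 13.8 CPM, *Fosb* at 3.47 CPM, *Jun* at 61.5 CPM, *Egr2* at 2.26 CPM, *Atf3* at 37.2 CPM and *Nr4a1* at 7.11 CPM, each far above the other 3. The remaining 4 were *Nr4a1* at 103 CPM in the third 8-week heart, *Junb* at 14.4 CPM in the first 12-week heart, *Egr1* at 60.1 CPM in the first 10-week kidney and *Nr4a1* at 21.6 CPM in the first 10-week liver. In the change from 8 to 12 weeks, heart and liver differed by -4.28 for *Atf3*, by -1.17 for *Jun* and by -0.82 for *Ier2* on the log2 scale (interaction term, edgeR adjusted p of 0.0221, 0.0377 and 0.0360). Of all genes 4.16% passed there, and without the first 12-week liver none of these members passed.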

How the results depend on the processing

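Of the members' single values, 1134 kept their direction and side of the threshold under other settings, 57 passed newly, 11 no longer passed, 22 moved and 1 reversed: *Jun* between kidney and liver, at 0.0348 without scaling factors. Counts of passing members moved as follows. Without a filter on low counts there were, in heart, 4 lower at 12 against 8 weeks, 2 higher and 1 lower at 10 against 8 and 5 lower at 12 against 10, in kidney 5 higher at 10 against 8 and 7 lower at 12 against 10, in liver 2 higher at 12 against 8 and 2 at 10 against 8, and 1, 8 and 2 differences in change for heart minus kidney, heart minus liver and kidney minus liver. Related genes then numbered 2 higher (heart, 12 against 8), 2 higher and 12 lower (heart, 10 against 8), 1 and 8 (heart, 12 against 10), 8 lower (kidney, 12 against 8), 7 and 2 (kidney, 10 against 8), 1 and 9 (kidney, 12 against 10), 1 and 4 (liver, 12 against 8), 2 higher (liver, 10 against 8) and 1 and 3 (liver, 12 against 10). In that setting the prior degrees of freedom rose from 4.88 to 99.1 in kidney and from 4.08 to 29.3 in liver and became infinite in heart (8.22 before), so a gene's own spread counted for little or nothing and these counts are not comparable.

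DESeq2 called 3 members in kidney at 10 against 8 and 3 at 12 against 10 weeks, 1 in liver at 12 against 8 and 1 for kidney minus liver, and of related genes 1 higher and 7 lower in heart at 10 against 8, 3 at 12 against 10, 2, 5 and 5 in kidney (12 against 8, 10 against 8, 12 against 10) and 2, 1 and 3 in liver (12 against 8, 10 against 8, 12 against 10). Over all genes in kidney at 10 against 8 weeks DESeq2 called 411 higher and 269 lower, and edgeR 114 and 50. By limma-voom there were 1 lower in heart at 10 against 8 (1 related gene), 0 in kidney at 10 against 8, 5 higher in heart than liver and 1 for heart minus liver. Over all genes limma-voom called 70 higher and 37 lower, 115 and 60, 8244 and 8282, and 358 and 295 there. With only the 2 ages compared there were 0 members in kidney at 10 against 8, and 1 related gene each in heart at 10 against 8 and kidney at 12 against 10. RLE factors, the sum of the strand columns and the first strand column each left 1 related gene in heart at 10 against 8. The sum left 0 and 1 in kidney (10 against 8, 12 against 10), and the first column 0 in kidney at 10 against 8 and 2 in heart at 12 against 10. Without scaling factors there were 5 higher in heart than kidney, 1 higher in kidney than liver and 1 for heart minus liver. Over all genes that setting called 5183 higher in heart than kidney and 14248 higher in kidney than liver. For heart minus liver it called 550 above and 205 below 0.

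Same-numbered libraries correlated at -0.170 to 0.118 between ages of one tissue and at -0.00884 to 0.164 between tissues at one age (4 of 36 over 0.1). Between tissues their median was 0.0545, against -0.0193 for libraries of different number (-0.137 to 0.0760). As not every pair was over 0.1 and no label ties a number to a mouse, the numbers were not taken to pair samples. The fits of all 36 libraries thus treated libraries of one number as independent, except under the block that follows. In the paper each age had too few mice for 2 tissues with 4 separate mice each, so tissues of one age shared mice. Between kidney and liver, every same-numbered pair was above every other pair of its age. The lowest were 0.0327, 0.0681 and 0.0534 at 8, 10 and 12 weeks, against at most 0.0172, 0.0396 and 0.0289. This did not hold at every age for heart with kidney or with liver. The block was the replicate number within a tissue, and the age together with the number in fits of all 36 libraries. Within a tissue it joined different mice, killed at different ages, so there it stands for no known pairing. With the block there were 1 higher and 1 lower member in heart at 10 against 8 (6 related genes), 2 at 12 against 10 (1 related gene), 1 in kidney at 12 against 10 and 1 for kidney minus liver. Over all genes the block called 163 higher and 69 lower, 4 and 11, 40 and 57, and 54 and 51 in these comparisons. Smaller shifts were 3 members and 19 related genes in heart at 12 against 8 (2 and 15 without the block), 7 members each between heart and liver and between kidney and liver (6 each) and 2 for heart minus liver (3). Over all genes the block called 371 higher and 360 lower, 8269 and 8278, 9092 and 7268, and 416 and 296 there.

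Leaving out one library gave, for members, 1 to 3 lower in heart at 12 against 8, 0 to 1 in each direction at 10 against 8 and 0 to 1 lower at 12 against 10, 0 to 3 higher in kidney at 10 against 8 and 0 to 1 lower at 12 against 10, 3 to 6 higher in heart than liver, 0 to 1 higher in kidney than liver, 0 to 4 for heart minus liver and 0 to 1 for kidney minus liver. For related genes it gave 0 to 2 higher and 5 to 17 lower in heart at 12 against 8, 0 to 1 and 0 to 12 at 10 against 8 and 0 to 2 lower at 12 against 10, 0 to 1 lower in kidney at 12 against 8, 1 to 4 higher and 0 to 2 lower at 10 against 8 and 1 to 5 lower at 12 against 10, and in liver 0 to 1 lower at 12 against 8, 0 to 1 higher at 10 against 8 and 0 to 2 lower at 12 against 10. Relations with *Fos* numbered 0 to 4 and those across tissues 0 to 3. The cause of these shifts was not tested. Counts over all genes with a library left out are not given, so the ranges cannot be set against them. Having 4 libraries a group, and counts near 0 for *Egr2* and *Egr3*, limited what could be detected.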
